A study of Mus musculus with 6 samples.

Results

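The primary, or azurophil, granule is the first granule that a developing neutrophil makes, and its proteins are transcribed at the promyelocyte stage. It stores myeloperoxidase and a set of serine proteases that help kill ingested microbes. Transcripts of these genes are already found in multipotent progenitors, where they mark a bias towards the granulocyte and monocyte lineages. The set described here holds 8 genes, chosen by name: Mpo, Elane, Prtn3, Ctsg, Ms4a3, Lyz2, Plac8 and Igsf6. All 8 were measured, out of 18193 genes on the array. The annotation table names each of them at 1 probe set, so no gene had a further probe set to set beside it. Lyz2, Plac8 and Igsf6 are also used by monocytes, so the set is not specific to neutrophils. By mean level over all arrays, the 8 genes ran from percentile 61.3 (Elane) to 99.2 (Mpo) of all genes.

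The RNA came from sorted mouse bone marrow cells (C57BL/6 background) that carry Sca1 and cKit and lack Flt3 and lineage markers, a population enriched in stem and progenitor cells. All mice carried loxP sites around exon 6 in both alleles of Raptor (gene Rptor), which encodes the defining subunit of the growth-promoting kinase complex mTORC1. The 3 Raptor mutant arrays came from mice with the MxCre transgene, whose interferon-responsive promoter drives the recombinase in many tissues, and the 3 wild type arrays from mice without it. Both groups received the interferon inducer pIpC, 3 times at 15 µg per g body weight over 5 days, and cells were sorted 5 weeks later. The study addressed the effect of Raptor loss on expression, and mutant against wild type is the only comparison. Whether each array holds 1 mouse or pooled mice is not in the labels, and p-values then measure only the spread between these arrays, part of which may be technical.

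The median log2 signal of an array was 6.85 to 6.94 and the lower quartile 5.15 to 5.37. The gate gene Kit stood at 10.7 to 11.2 and the progenitor gene Cd34 at 11.5 to 11.9 on the log2 scale. Lineage genes, chosen as examples, were mixed: Cd3e stood at 3.93 to 5.94, Cd8a at 6.08 to 6.79, Cd4 at 6.15 to 6.93 and Cd79b at 7.40 to 8.71. The later neutrophil gene S100a9 stood at 13.3 to 13.6 on wild type and 9.74 to 11.7 on mutant arrays. Flt3 RNA stood at 9.51 to 10.8 although the gate removes cells with the Flt3 protein, and Ly6a, which encodes Sca1, was not analysed here. The brightest Rptor probe set had a log2 fold change of 0.22 ± 0.29 (SE; limma adjusted p = 0.771), and 2 dimmer ones had -0.32 ± 0.25 and 0.99 ± 0.46. The position of the 3 probe sets against the floxed exon was not analysed here, and they serve as no check of the labels or the deletion. The sign of the brightest turned without wild type array 3 (-0.04) and against wild type array 1 alone (-0.23). The wild type arrays were not alike. Xist was at 13.4 to 13.5 on wild type array 1 and on the mutant arrays, but lower on the others. It was at 8.05 on wild type array 2 and 5.69 on wild type array 3. Y-linked Kdm5d was high on those 2 (10.6 and 9.53) and low, at 3.60 to 3.88, on the other 4. Over all probe sets wild type array 1 also correlated more with the mutant arrays (r of 0.977 to 0.984) than with wild type arrays 2 and 3 (0.962 and 0.967). Wild type arrays 2 and 3 correlated least with one another (0.957). These r were taken over probe sets and not over replicates. Over all arrays genotype and Y-linked signal are confounded in part, and without wild type array 1 they cannot be told apart. The members are therefore also given without wild type array 1 and against it alone, and genes named from the lists where their value moved by over 1.5 times.

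The start regions of Elane and Prtn3 are shown because these genes are neighbours with nearly the same layout of matches, and their values are set against one another below. Those of Ms4a3 and Lyz2 follow because they hold the same ETS-type letters within 140 bases of the start site, in Lyz2 on the opposite strand. Mpo and Ctsg hold them further upstream, at -222 to -217 and -205 to -200, and are not shown. Each stretch is the 140 bases before the start site in RefSeq (build GRCm38.p6), 5′ to 3′ on the gene's strand. Capitals mark matches to the letters GGAAGT (core of ETS factors such as PU.1), CAACGG (MYB), TTGCNNAA (C/EBP) and TATAA (TATA box), searched on both strands.
Elane, chr10:79886172-79886311, plus strand: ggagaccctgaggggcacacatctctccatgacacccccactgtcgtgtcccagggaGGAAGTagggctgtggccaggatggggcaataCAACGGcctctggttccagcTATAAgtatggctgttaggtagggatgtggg
Prtn3, chr10:79879527-79879666, plus strand: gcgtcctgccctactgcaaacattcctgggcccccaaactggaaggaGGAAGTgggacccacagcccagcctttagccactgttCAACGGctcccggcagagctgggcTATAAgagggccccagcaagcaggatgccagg
Ms4a3, chr19:11640852-11640991, minus strand: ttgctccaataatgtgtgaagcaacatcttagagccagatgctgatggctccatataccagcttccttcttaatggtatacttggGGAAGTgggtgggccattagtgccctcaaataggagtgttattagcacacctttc
Lyz2, chr10:117282273-117282412, minus strand: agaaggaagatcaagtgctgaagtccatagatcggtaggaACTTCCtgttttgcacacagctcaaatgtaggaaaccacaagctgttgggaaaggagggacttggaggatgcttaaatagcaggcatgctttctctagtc

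The start sites of Prtn3 and Elane lie 6645 bases apart on the same strand. In both, the letters come in the order ETS, MYB and TATA, read 5′ to 3′ towards the start site. In Elane they lie at positions -83 to -78, -51 to -46 and -31 to -27, and in Prtn3 at -93 to -88, -56 to -51 and -32 to -28. Within 250 bases before the first listed start site, GGAAGT was found in 6 of the 8 genes, the exceptions being Plac8 and Igsf6, and in 19.7% of 32851 promoters. CAACGG was found in 2 of 8 (4.05% of promoters), TATAA in 3 of 8 (22.8%), the other match being on the opposite strand in Ctsg, and TTGCNNAA in 0 of 8 (9.56%). No motif pair overlapped in the stretches shown. A match is a string of letters, not a measured binding site.

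None of the 8 genes was called changed in mutant arrays. By limma with Benjamini-Hochberg adjustment over all genes, 0 of 8 passed an adjusted p of 0.05, where 0.110% of all genes did (0.0550% in each direction), a background so low that 0 of 8 says little about the set. At an unadjusted p under 0.05 there were 3 of 8, against 10.0% of all genes. These were Lyz2 and Elane, lower in mutant arrays (4.24% of all genes), and Igsf6, higher (5.81%). The groups did not overlap in 4 of 8, against 16.1% of all genes. Of these, Lyz2 and Elane lay below the wild type values (7.98% of all genes) and Ctsg and Igsf6 above them (8.08%). The set had no common direction: 5 of 8 log2 fold changes were above 0, against 40.4% of all genes, and their median was 0.17, beside -0.07 over all genes. The mean log2 signal of the 8 genes was 10.9 to 11.1 on wild type and 11.0 to 11.2 on mutant arrays. Those ranges overlap. In these sorted bulk samples, fewer cells of a type and less RNA per cell cannot be told apart.

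**Figure D1:**
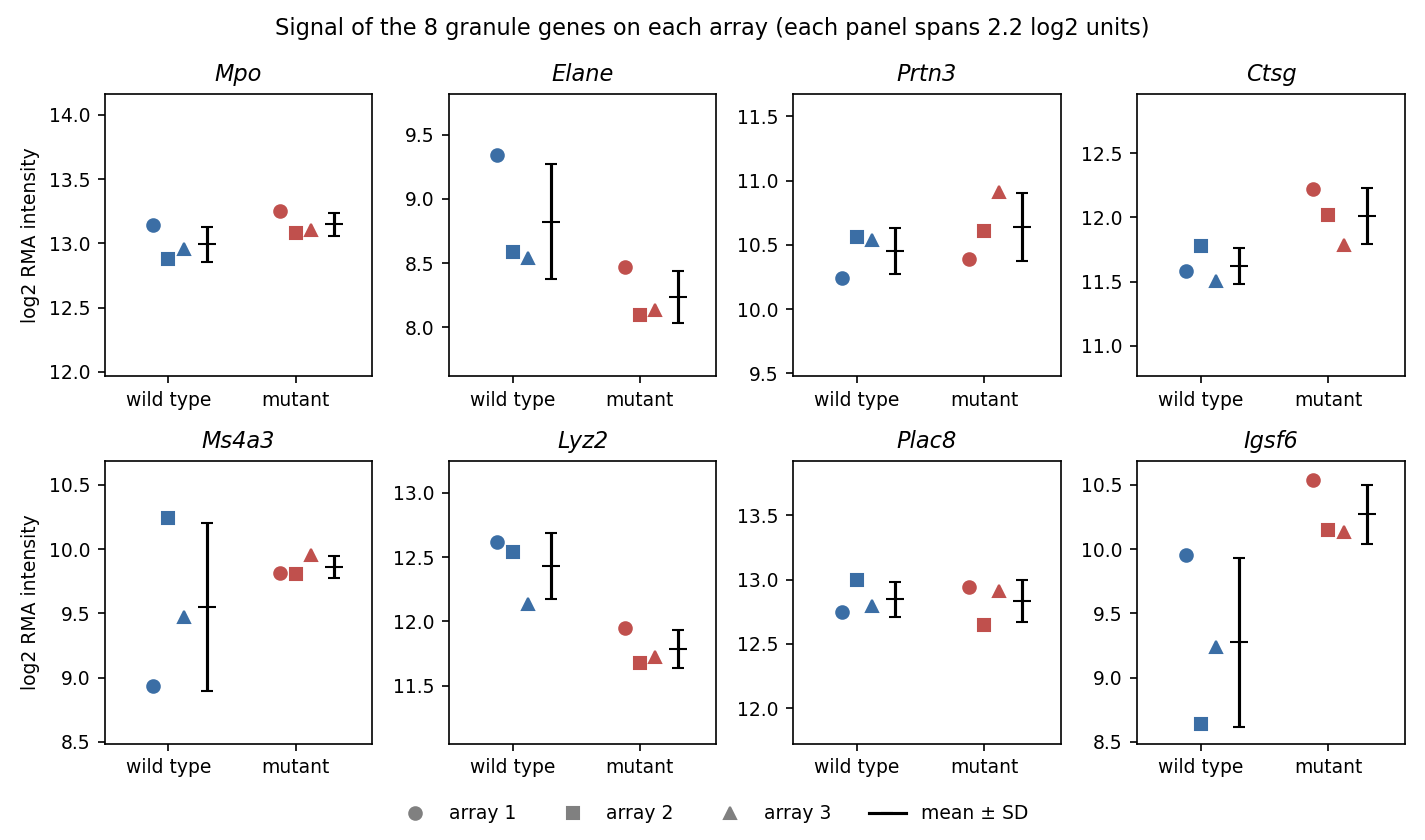
Log2 RMA intensity (vertical axis, 2.2 log2 units in every panel) of the 8 genes in wild type and mutant arrays, with the array number as symbol and the mean ± SD (n = 3) beside the points. Lyz2 and Elane sit lower and Ctsg and Igsf6 higher on all 3 mutant arrays, while the groups overlap for Mpo, Prtn3, Ms4a3 and Plac8.

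Mpo encodes myeloperoxidase, the haem enzyme that makes hypochlorous acid and the most abundant protein of the granule. Its log2 signal was 13.14, 12.88 and 12.95 on wild type arrays 1, 2 and 3, and 13.25, 13.08 and 13.10 on mutant arrays 1, 2 and 3. Only wild type array 1 reached into the mutant values. The mean was 12.99 ± 0.14 in wild type and 13.15 ± 0.09 in mutant arrays (SD, n = 3 each). The log2 fold change of 0.16 ± 0.16 (SE) had a limma adjusted p of 0.719 and a 95% interval of -0.20 to 0.52. Without wild type array 1 it was 0.23 and the groups of Mpo did not overlap, and against that array alone it was 0.00325. Leaving out wild type array 2 or mutant array 1 lowered it to 0.10.

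The serine proteases of the granule did not share a direction. Elane encodes neutrophil elastase, which is mutated in cyclic and severe congenital neutropenia. Its log2 signal was 9.34, 8.59 and 8.54 in wild type (arrays 1 to 3) and 8.47, 8.10 and 8.14 on mutant arrays 1, 2 and 3. Wild type array 1 was the highest, and the smallest gap between the groups was 0.07 log2 units. Elane had a log2 fold change of -0.59 ± 0.25 (SE), 1.504-fold lower, with an unadjusted p of 0.0464 and an adjusted p of 0.491 in limma. Without wild type array 1 the value was -0.33 and against that array alone it was -1.11, with adjusted p from 0.303 to 0.847 over all alternatives.

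Prtn3 encodes proteinase 3, a close relative of elastase and the main autoantigen in granulomatosis with polyangiitis. Its log2 signal was 10.24, 10.56 and 10.54 on wild type arrays 1 to 3, and 10.39, 10.61 and 10.91 on mutant arrays 1 to 3. The groups overlapped, with mutant array 3 the highest. The log2 fold change was 0.19 ± 0.19 (SE; limma adjusted p = 0.722), with a 95% interval of -0.26 to 0.63. It was 0.09 without wild type array 1 and 0.40 against that array alone. Without mutant array 3 it was 0.05, and without mutant array 1 it was 0.31 and the groups of Prtn3 did not overlap.

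Ctsg encodes cathepsin G, a protease with chymotrypsin-like specificity that is shared with monocytes and mast cells. Wild type arrays 1 to 3 gave 11.58, 11.78 and 11.51, and mutant arrays 1 to 3 gave 12.22, 12.02 and 11.78. All mutant values were above all wild type values, but mutant array 3 and wild type array 2 were 0.00453 log2 units apart. Its log2 fold change was 0.39 ± 0.18 (SE), with an unadjusted p of 0.0611 and an adjusted p of 0.524 in limma. It was 0.36 without wild type array 1 and 0.43 against that array alone. The groups of Ctsg overlapped after median centring, quantile normalization or cyclic loess was applied again.

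The neighbours Elane and Prtn3 were then set against one another within each array. Elane minus Prtn3 was -0.90, -1.98 and -2.00 on the log2 scale on wild type arrays 1 to 3 and -1.92, -2.51 and -2.77 on mutant arrays 1 to 3. Wild type arrays 2 and 3 lay below mutant array 1, so the groups overlapped. The mutant mean was lower by a difference of -0.78 (exact two-sided permutation p = 0.3, and 0.3 after adjustment over 2 pairs). Without wild type array 1 that difference was -0.42.

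Elane minus Mpo was -3.80, -4.29 and -4.41 on wild type arrays 1 to 3 and -4.78, -4.99 and -4.97 on mutant arrays 1 to 3. All mutant values were below all wild type values. The difference of -0.74 had an exact two-sided permutation p of 0.1, the smallest that 3 against 3 arrays allow, and 0.2 after adjustment over 2 pairs. Leaving out an array in turn gave -0.87 to -0.56. These are relative changes within an array, and they set no level of a gene against that of another.

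**Figure D2:**
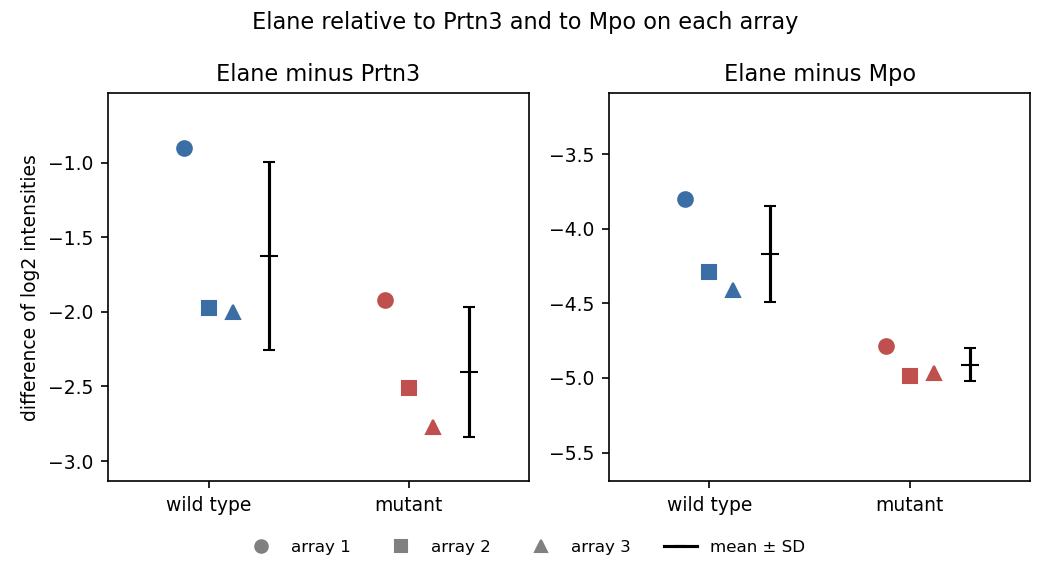
Difference of log2 intensities within each array (vertical axis) for Elane minus Prtn3 and Elane minus Mpo, by group, with the array number as symbol and the mean ± SD (n = 3). The groups overlap for Prtn3, with wild type array 1 far above the rest at -0.90, and do not overlap for Mpo.

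Lyz2 encodes lysozyme M, which cuts bacterial cell walls and is made by neutrophils and macrophages. Its log2 signal was 12.62, 12.54 and 12.14 on wild type arrays 1, 2 and 3 and 11.95, 11.68 and 11.73 on mutant arrays 1, 2 and 3. The groups did not overlap, the smallest gap being 0.18. Lyz2 had the smallest p of the 8 genes, with a log2 fold change of -0.65 ± 0.19 (SE), 1.56-fold lower, an unadjusted p of 0.00897 and an adjusted p of 0.310 in limma. The value stayed between -0.83 and -0.55 over all alternatives, with adjusted p from 0.107 to 0.787. It was -0.55 without wild type array 1 and -0.83 against that array alone.

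Lyz1, the near-identical neighbour of Lyz2 that encodes lysozyme P, has 3 probe sets. Both bright ones carry a name ending in _x_at, which marks probes that can also match other sequences, so their signal and that of Lyz2 cannot be told apart. They had log2 fold changes of -0.60 ± 0.18 and -0.63 ± 0.19 (SE). The third Lyz1 probe set stood at 5.42 to 6.07 on all 6 arrays, near the lower quartile.

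Ms4a3 encodes a tetraspan membrane protein of granulocyte-monocyte progenitors and is used to trace their progeny. The wild type signals (arrays 1 to 3) were 8.93, 10.24 and 9.48 and the mutant ones 9.81, 9.80 and 9.96. The mutant values lay inside the wild type range, with an SD of 0.09 in mutant and 0.66 in wild type arrays. Its log2 fold change of 0.31 ± 0.31 (SE; limma adjusted p = 0.719) had a 95% interval of -0.41 to 1.02. Without wild type array 1, the lowest, it was 0.00122, and against that array alone it was 0.92. Without wild type array 2, the highest, it was 0.65 and the groups of Ms4a3 did not overlap. Over all genes the wild type SD was the larger in 75.8%, and among the 8 genes in 5.

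Plac8 encodes a small cysteine-rich protein, also called onzin, of granulocytes, monocytes and plasmacytoid dendritic cells. Its log2 signal was 12.75, 13.001 and 12.80 on wild type arrays 1 to 3 and 12.94, 12.65 and 12.91 on mutant arrays 1 to 3. The groups overlapped throughout. The log2 fold change was -0.01 ± 0.16 (SE; limma adjusted p = 0.978), with a 95% interval of -0.40 to 0.37. Its sign turned without wild type array 2 (0.06), without mutant array 2 (0.08) and against wild type array 1 alone (0.09), and it was -0.07 without wild type array 1.

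Igsf6 encodes a membrane receptor of the immunoglobulin superfamily found on monocytes, macrophages and dendritic cells. Wild type arrays 1, 2 and 3 gave 9.95, 8.64 and 9.24, and mutant arrays 1, 2 and 3 gave 10.54, 10.15 and 10.13. The groups did not overlap, but wild type array 1 was 0.18 below the lowest mutant array and 1.32 above wild type array 2. Igsf6 had a log2 fold change of 0.996 ± 0.322 (SE), 1.99-fold higher, with an unadjusted p of 0.0155 and an adjusted p of 0.375 in limma. Without wild type array 1 it was 1.33 (limma adjusted p = 0.111), where genotype and Y-linked signal cannot be told apart. Against that array alone it was 0.32, and the limma adjusted p ran from 0.111 to 0.9999 over all alternatives.

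**Figure D3:**
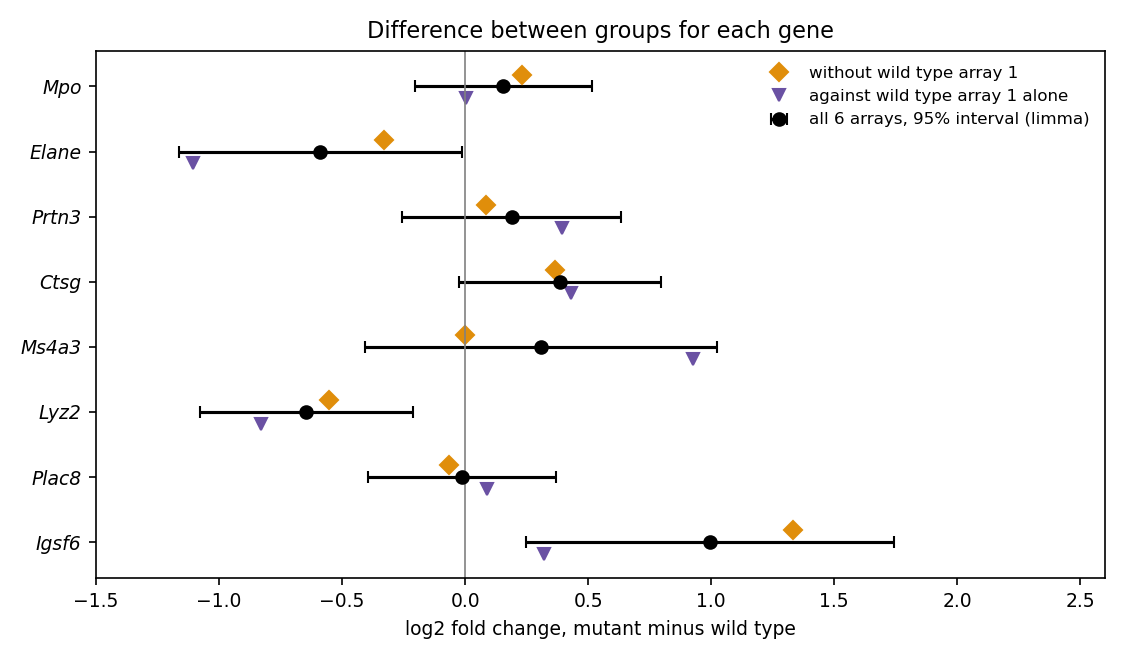
Log2 fold change, mutant minus wild type (horizontal axis), for the 8 genes with the 95% interval from limma over all 6 arrays, and the values without wild type array 1 or against it alone. The intervals of Lyz2, Elane and Igsf6 leave out 0 before adjustment, and the values of Elane, Ms4a3 and Igsf6 move most with wild type array 1.

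For members whose 6 values spanned at least 1 log2 unit, the genes with the most similar profile were sought among 8784 genes. Likeness was the root mean square distance, over 6 arrays, between log2 values centred on each gene's mean. Nearest to Elane were Ccng2, an atypical cyclin, at 0.10 and Zfp36l1, an RNA-binding protein that destabilises transcripts, at 0.10 (distances in log2 units). Ccng2 had a log2 fold change of -0.62 and Zfp36l1 one of -0.45. Nearest to Ms4a3 were Pelo, a ribosome rescue factor, at 0.13 and Lzic at 0.13. Nearest to Igsf6 were Parvb, an adaptor of integrin adhesions, at 0.11 and Abcb1b, a drug efflux pump, at 0.14. Parvb and Abcb1b had log2 fold changes of 1.005 and 1.011 (limma adjusted p = 0.413 for each). A gene chosen for a like profile over these arrays has a similar fold change by that choice, so the closeness adds no evidence.

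Other genes that process, package, inhibit or accompany the granule proteins were described from a fixed list. Of 24 measured, 0 rose, 0 fell and 24 did not pass by limma, with 3 above and 2 below 0 at an unadjusted p under 0.05 (10.0% of all genes in either direction) and a median log2 fold change of 0.19. Dipeptidyl peptidase I, which activates the proteases (Ctsc, chosen for its role), had one of 0.30 ± 0.19, and 0.13 against wild type array 1 alone, 0.16 without mutant array 1 and 0.20 without wild type array 3. Srgn, the serglycin core on which they are packed, had -0.13 ± 0.15, and Serpinb1a, a cytosolic inhibitor of the proteases, -0.15 ± 0.16 (SE), both also chosen for their roles. Against wild type array 1 alone Srgn had -0.23 and Serpinb1a -0.29, and without it both had -0.08. The largest values above 0 by p were those of Cst7 (cystatin F, an inhibitor of lysosomal cathepsins), 1.26 ± 0.30, and Rab27a, a GTPase of granule exocytosis, 0.70 ± 0.17. Cst7 had 1.94 against wild type array 1 alone. Ctsd, the lysosomal aspartic protease cathepsin D, had 0.66 ± 0.16. Fcnb, a ficolin of granulocyte granules, had -1.45 ± 0.25, with 7.71, 6.95 and 7.44 on wild type arrays 1 to 3 against 5.53, 6.12 and 6.09 on mutant arrays 1 to 3. Its adjusted p was 0.133 in limma.

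Transcription factors and receptors that act on these genes were also mixed. Of 23 measured, 0 rose, 0 fell and 23 did not pass by limma, with a median of 0.02. At an unadjusted limma p under 0.05, 4 were above 0 (5.81% of all genes) and 2 below (4.24%). Cebpa, the C/EBP factor required for granulocyte-monocyte progenitors, was at 9.32, 9.23 and 9.34 on wild type arrays 1 to 3 and at 10.38, 9.86 and 10.23 on mutant arrays 1 to 3. All mutant values of Cebpa were above all wild type values, with a log2 fold change of 0.86 ± 0.18 and a limma adjusted p of 0.165. Gfi1, a repressor needed for neutrophil maturation, had 0.76 ± 0.27, and Csf2rb, the common beta chain of the GM-CSF, IL-3 and IL-5 receptors, had 1.304 ± 0.268. Against wild type array 1 alone Gfi1 had 0.21 and Csf2rb 0.72, and Gfi1 had 0.48 without wild type array 2. Klf4, a factor of monocytes, had -1.08 ± 0.33, and -0.63 over the mean of its probe sets. Cebpb, a factor of emergency granulopoiesis, had -0.49 ± 0.20. Spi1, which encodes PU.1, had -0.29 ± 0.20 and Myb -0.19 ± 0.15 (SE), both chosen for their motifs above and with limma adjusted p of 0.636 and 0.667. The value of Spi1 was 0.02 against wild type array 1 alone.

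The genes of later granules and calprotectin, which neutrophils switch on after the primary granule, gave other values on the same arrays. Of 19 measured, 2 fell (0.0550% of all genes), 0 rose and 17 did not pass by limma. The median was -1.11, beside -0.07 over all genes. At an unadjusted limma p under 0.05, 12 were below 0 (4.24% of all genes) and 0 above (5.81%). The mutant values lay wholly below the wild type values in 12 of 19 (7.98% of all genes in that direction). Camp, the cathelicidin, was at 11.2, 11.8 and 11.1 on wild type arrays 1 to 3 and at 7.83, 8.29 and 6.60 on mutant arrays 1 to 3, and fell by 3.81 ± 0.42 (SE, log2; limma adjusted p = 0.0299). Camp lost its call without any of wild type arrays 1, 2 and 3 or mutant array 1, with adjusted p of 0.0754 to 0.117. Chil3, a chitinase-like protein, fell by 2.68 ± 0.33 (adjusted p = 0.0431, limma) and lost its call without any of wild type arrays 1, 2 and 3 or mutant array 3, with adjusted p of 0.0863 to 0.155. Cyclic loess again, separate probe sets, array weights, the pseudocount, the Y-linked signal as a covariate and the use of wild type array 1 alone ended both calls (adjusted p of 0.0502 to 0.467 for Camp and 0.0689 to 0.410 for Chil3), as did quantile normalization again that of Chil3 (0.0706). S100a8, a subunit of calprotectin, had -3.13 ± 0.43 (adjusted p = 0.0729, limma), and an adjusted p of 0.0257 without mutant array 2 and 0.0389 over the mean of its probe sets. The difference between this list and the 8 primary granule genes was not tested.

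**Figure D4:**
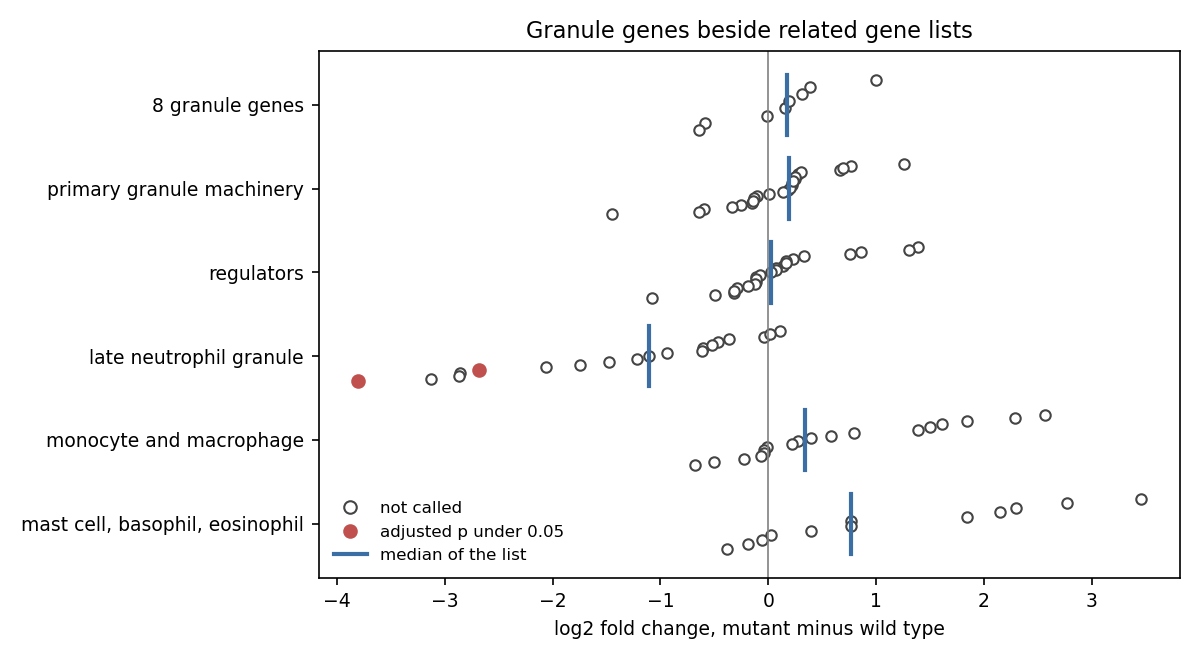
Log2 fold change, mutant minus wild type (horizontal axis), of every measured gene in 6 gene lists, 1 point per gene, with the median of each list as a bar and genes at a limma adjusted p under 0.05 filled. The 8 primary granule genes spread from -0.65 to 0.996 about a median of 0.17, while the late granule genes reach -3.81 about a median of -1.11.

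Marker lists of other myeloid cells also differed in mean signal between the groups in which Lyz2, Elane, Ctsg and Igsf6 did not overlap. The late neutrophil list had a mean log2 signal of 8.05 to 8.65 on wild type and 6.84 to 7.38 on mutant arrays, and its member Stfa3 stood at 4.61 to 5.12 throughout. The monocyte and macrophage list had a mean of 6.62 to 7.06 on wild type and 7.35 to 7.74 on mutant arrays. Of its 18 measured genes 0 passed, with 6 above (5.81% of all genes) and 0 below 0 (4.24%) at an unadjusted p under 0.05, and 7 of the 18 log2 fold changes were below 0. Cd68, a lysosomal glycoprotein of macrophages, had a log2 fold change of 1.498 ± 0.215 and C1qb, a complement component, one of 2.57 ± 0.41 (SE). Of the other C1q genes in the list, C1qa had 0.28 ± 0.28, with overlapping groups, and C1qc 0.58 ± 0.28 (SE). These were chosen to stand beside C1qb, and their alternatives are not given here. S100a4, a calcium-binding protein, had -0.68 ± 0.34 and Ms4a6c, a membrane protein of monocytes, -0.50 ± 0.33 (SE). S100a4 had -0.44 without wild type array 2 and -1.05 without wild type array 3, and Ms4a6c had -0.14 without wild type array 1 and -1.23 against it alone. Adgre1, which encodes the macrophage marker F4/80, stayed at 4.26 to 5.11 on all arrays, below every lower quartile.

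The mast cell, basophil and eosinophil list had a mean of 7.60 to 7.72 on wild type and 8.59 to 8.96 on mutant arrays. Of its 12 measured genes 0 passed, with 5 above (5.81% of all genes) and 0 below 0 (4.24%) at an unadjusted limma p under 0.05. Ms4a2 and Fcer1a, the beta and alpha chains of the IgE receptor, had log2 fold changes of 2.77 ± 0.38 and 3.45 ± 0.55 (SE). Against wild type array 1 alone Fcer1a had 2.04, and without it 4.16, which passed (limma adjusted p = 0.0105). Without that array genotype and Y-linked signal cannot be told apart, so the call cannot be assigned to genotype. The chemokine gene Ccl3 had -0.38 ± 0.32, ranging from -0.15 without wild type array 1 to -0.84 against it alone. The mast cell tryptase gene Tpsb2 stood at 7.15 to 7.53 throughout. The dendritic cell list had a mean of 7.84 to 8.11 on wild type and 8.40 to 8.76 on mutant arrays. Of its 13 genes 0 passed, with 4 above (5.81% of all genes) and 0 below 0 (4.24%) at an unadjusted limma p under 0.05. H2-Aa and Cd74, genes of class II presentation, had 2.13 ± 0.34 and 1.90 ± 0.41 (SE). Of the 13, 4 were below 0, among them the factor genes Batf3 at -0.38 ± 0.20 and Tcf4 at -0.27 ± 0.16 (SE). The groups of Tcf4 did not overlap, and its value was -0.12 over the mean of its probe sets and -0.41 against wild type array 1 alone. Batf3 had -0.07 against wild type array 1 alone and -0.22 without wild type array 3. When probe sets were averaged per gene, Cd68, C1qb and Ms4a2 passed, with limma adjusted p of 0.0472, 0.0321 and 0.0472. The part of these cell types in the values of Lyz2, Elane, Ctsg and Igsf6 was not tested.

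Lymphocyte markers had a mean of 6.38 to 7.09 on wild type and 6.38 to 6.67 on mutant arrays, and erythroid and megakaryocyte markers one of 8.10 to 8.50 and 7.82 to 8.27. Of the 15 and 11 genes measured in these lists, 0 passed by limma. At an unadjusted limma p under 0.05, 0 and 3 were below 0 (4.24% of all genes) and 0 above (5.81%). Among 12 sort gate and stem cell genes, Tek, the angiopoietin receptor, fell by 1.48 ± 0.17 (SE, log2, limma adjusted p = 0.0299), 0 rose and 11 did not pass. Of all genes, 0.0550% fell. Tek lost its call without wild type array 1 or 3 or without any of mutant arrays 1, 2 and 3, with adjusted p of 0.0685 to 0.163. Its call also ended with separate probe sets (0.0678), array weights (0.0547), the Y-linked signal as a covariate (0.311) and against wild type array 1 alone (0.201). The mean of these 12 genes was 10.3 to 10.6 on wild type and 10.01 to 10.12 on mutant arrays. At an unadjusted limma p under 0.05, 1 of the 12 was above 0 (5.81% of all genes) and 5 were below (4.24%). The 5 include Itgam, a myeloid integrin gene, at -0.90 ± 0.26 (SE), which stood at 5.22 to 6.50 on the arrays. The list also holds Flt3, whose protein the gate selects against, so it is not made of stem cell genes alone. Mecom had a log2 fold change of -0.996 ± 0.164, and -0.38 over the mean of its probe sets. Hlf had -0.81 ± 0.15 and Cd48 0.68 ± 0.16 (SE).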

How the data were processed

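For each array the authors deposited linear intensities, 1 per probe set. They used RMA per the submitters' processing notes, whose version, settings and build were not stated in the sources. RMA normalizes arrays together, so a shift common to most genes is removed. Log2 was taken of the deposited values. Probe sets naming 1 gene were kept (34945 of 45101), with the brightest over the 6 arrays per gene, giving 18193 genes. Array data carry no read depth, and 3 arrays per group limit the precision.

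The test was limma 3.58.1 (lmFit and eBayes, R 4.3.3) on mutant minus wild type, with two-sided p adjusted by Benjamini-Hochberg over all genes. Errors are limma SE or SD between arrays. The procedure was tested on simulated data. Members, 9 further gene lists, tests and naming rule were chosen with earlier results of these data known. Named were all members, called genes of the lists, up to 3 per list and direction by p, and those the text says were chosen otherwise. For each member spanning at least 1 log2 unit, the 2 nearest profiles among genes at or above the median level were named. Promoter sequences came from RefSeq (GRCm38.p6), matched by symbol for 8 of 8 genes, and the first listed start site was used (Plac8 has a second one).

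Alternatives were the replicate block, renormalization by median, quantile or cyclic loess, mean or all probe sets, filters on the lower 25% or 50% of genes, trend and robust fitting, array weights, a pseudocount of 32, adjusted p under 0.10, Y-linked signal (mean log2 of Eif2s3y and Kdm5d) as a covariate, and leaving out arrays.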

Additional observations from a re-analysis of the deposited data

How the results depend on the processing

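By limma, 0 of 8 members were called under every alternative run, including adjusted p under 0.10. Over 19 alternatives 7 of the 8 kept their direction in all, and Plac8 in 15. The replicate block, mean or all probe sets, both filters and trend and robust fitting could not move a member's value. Direction could not change in those settings. The kept directions include values as small as 0.00122 for Ms4a3 and 0.00325 for Mpo. The value of Plac8 ran from -0.0691 to 0.0787 with arrays left out in turn, was 0.09 with the Y covariate (0.0863) and 0.09 against wild type array 1 alone (0.0878). Rptor ran from -0.0374 to 0.452 with arrays left out, and was -0.19 and -0.23 in those 2 settings, and Spi1 was 0.02 in both (0.0198 and 0.0202). Members at an unadjusted p under 0.05 numbered 2 to 5 with arrays left out, 5 without wild type array 2, a count added after the data were seen. Of all 18193 genes, 1066 (without mutant array 3) to 3938 (without wild type array 1) were under that limma p. Without wild type array 2 that number was 1723. The count of all genes called, 20, was 12 with probe sets kept apart, 40 with trend and robust fitting, 8 with array weights, 9 with the pseudocount, 49 at adjusted p under 0.10, and 5 (without wild type array 3) to 31 (without wild type array 1) with arrays left out. It was 0 with the Y covariate (1149 at an unadjusted p under 0.05) and 0 against wild type array 1 alone (1729), a lone array assumed to vary like the others. Deviations of same-numbered arrays from their group means correlated at 0.18, -0.03 and 0.06 across genes. Those of differently numbered arrays correlated at -0.16 to 0.09, and not every array correlated best with its own number. Such deviations sum to 0 within a group and no null was drawn, so whether the numbers pair the arrays cannot be settled. With the replicate block 10 genes were called, none of them a member, the adjusted p was 0.164 for Chil3, 0.115 for Tek and 0.0411 for S100a8, and the pair differences stayed at -0.78 and -0.74. The cause of these shifts was not tested. With 3 arrays a group, a member's 95% interval spans 0.72 log2 units for Mpo up to 1.49 for Igsf6.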
